A study of Mus musculus with 366 samples.

Results

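The genes described here place peptides on MHC class I molecules. The list holds 10 genes: the heavy chains H2-D1, H2-K1 and H2-T23, the light chain B2m, the peptide transporter subunits Tap1 and Tap2, the loading factor Tapbp (tapasin) and the immunoproteasome subunits Psmb8, Psmb9 and Psmb10. A probe set counted as a member when the platform's annotation gave it exactly 1 of these symbols, and every such probe set is described. By this rule 7 of the 10 genes had probe sets, 19 in all, among 17097 genes with a probe set of their own on the array. B2m, Tap1 and Tap2 are not analysed here, and 5 further probe sets whose symbols include a member among others were left out. One Psmb9 probe set, 1416016_PM_at, has an uncertain name: a probe list published with the study names it Tap1, so its values are given by the probe set's identifier.

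The arrays measured aortic RNA of 366 female F1 mice, 1 array per mouse, aged 24 weeks. Females of inbred strains of the hybrid mouse diversity panel were crossed to C57BL/6J males that carried the human transgenes APOE-Leiden (heterozygous) and CETP (homozygous), and F1 mice with both transgenes were kept. All mice ate chow for 8 weeks and then a Western diet for 16 weeks, so neither an untreated nor a transgene-free group was part of the arrays. Every F1 mouse therefore holds 1 C57BL/6J copy of each autosomal gene and 1 copy from the strain after which it is named, and the C57BL/6J cross holds the C57BL/6J sequence on both copies. A strain difference in the F1 is a difference between heterozygotes. The aorta was taken from the arch to the mid-abdomen and cleaned of surrounding fat.

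The strains fall into 5 families by name. The recombinant inbred sets were BXD (36 strains), AXB/BXA (21), CXB (9) and BXH (4), and 31 strains were classical inbred strains. Recombinant inbred strains descend from C57BL/6 and 1 other progenitor (DBA/2J for BXD, A/J for AXB/BXA, a BALB/c line for CXB and C3H/HeJ for BXH), so strains of a set are related and are not independent draws. A strain had 1 to 8 arrays, with a median of 4. The 95 strains with at least 2 arrays (360 arrays) entered the tests, and the 6 strains with 1 array entered only the descriptions. Values are log2 intensities after RMA, a method that subtracts background, equalises the arrays and summarises the probes of a set. The median of all values was 3.28, and a probe set's level cannot be set against that of another probe set.

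The 5 smooth muscle markers measured had medians over arrays from 5.36 (Lmod1) to 12.05 (Acta2, smooth muscle actin), and the 6 endothelial markers from 4.06 (Tie1) to 8.19 (Emcn). Of the 3 adipocyte markers, Adipoq had a median of 12.47, Ucp1 of 12.94 and Lep of 4.66. The T cell markers Cd3e and Cd8a lay at 3.17 and 3.09, near the median of all values. By their marker scores, 32 arrays stood apart with high hepatocyte markers and 21 with a high joint score of T, NK and B cell markers. In bulk tissue, fewer cells of a type and less RNA per cell cannot be told apart.

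MHC class I molecules show fragments of a cell's own proteins at its surface. The proteasome cuts the proteins, and interferon-gamma exchanges its catalytic subunits for Psmb8, Psmb9 and Psmb10. The Tap1/Tap2 transporter carries the peptides into the endoplasmic reticulum, where tapasin holds the empty heavy chain and B2m pair next to the transporter until a peptide fits. H2-K1 and H2-D1 are the classical heavy chains, read by CD8 T cells, and are among the most polymorphic genes of the mouse. H2-T23 encodes Qa-1, a nonclassical heavy chain that shows leader peptides of other class I molecules to NK cell receptors. Most of these genes lie in the H2 complex on chromosome 17. The annotation placed 8 of the 10 there, with B2m on chromosome 2 and Psmb10 on chromosome 8. Inbred strains carry the H2 complex in named haplotypes. C57BL/6J is a textbook H2b strain, DBA/2J and BALB/cJ are H2d, C3H/HeJ, CBA/J and AKR/J are H2k, and A/J is the recombinant H2a, with its K end from k and its D end from d. The labels do not give haplotypes, and their part in the differences below was not tested.

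The annotation holds 2 starts for H2-K1, and the one at the lower coordinate is used. Across strains the main H2-D1 probe set correlated at r = 0.84 with that of H2-K1, 0.48 with Psmb8 and 0.38 with H2-T23. The upstream sequences of the 3 heavy chain genes and of Psmb8 are shown as a description, and their part in these correlations was not tested. Each is the 250 bases before the annotated start in RefSeq (build GRCm38.p6, the C57BL/6J reference), written 5′ to 3′ on the gene's strand. The windows are chr17:35262844-35263093 on the plus strand for H2-D1, chr17:34000334-34000583 on the minus strand for H2-K1, chr17:36032702-36032951 on the minus strand for H2-T23 and chr17:34197945-34198194 on the plus strand for Psmb8. Capitals mark matches to 4 motifs searched on both strands: GGGATTCCC (a kB site), GAANNGAAA (interferon-stimulated response element-like), TTCNNNGAA (interferon-gamma activated site) and CCAAT, whose reverse complement is ATTGG.
H2-D1: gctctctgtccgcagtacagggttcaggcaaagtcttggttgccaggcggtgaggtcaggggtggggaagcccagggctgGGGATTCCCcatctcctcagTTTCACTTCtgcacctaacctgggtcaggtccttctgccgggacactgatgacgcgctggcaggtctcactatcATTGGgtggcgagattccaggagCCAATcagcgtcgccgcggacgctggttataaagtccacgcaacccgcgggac
H2-K1: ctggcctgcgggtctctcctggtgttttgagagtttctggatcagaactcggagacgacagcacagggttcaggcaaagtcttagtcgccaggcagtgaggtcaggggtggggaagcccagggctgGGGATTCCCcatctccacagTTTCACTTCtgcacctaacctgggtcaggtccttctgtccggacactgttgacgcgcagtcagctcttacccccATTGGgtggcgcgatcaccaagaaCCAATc
H2-T23: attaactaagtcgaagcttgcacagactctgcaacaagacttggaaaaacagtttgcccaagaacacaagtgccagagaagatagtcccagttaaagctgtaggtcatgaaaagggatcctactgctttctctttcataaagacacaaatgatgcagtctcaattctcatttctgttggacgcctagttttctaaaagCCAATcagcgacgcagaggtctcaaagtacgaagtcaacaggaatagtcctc
Psmb8: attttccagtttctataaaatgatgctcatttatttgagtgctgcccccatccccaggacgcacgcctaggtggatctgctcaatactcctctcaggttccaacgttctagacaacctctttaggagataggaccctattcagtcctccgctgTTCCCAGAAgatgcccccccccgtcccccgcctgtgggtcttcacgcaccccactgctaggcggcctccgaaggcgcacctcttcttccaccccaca

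The H2-D1 and H2-K1 windows held the same order of matches: the kB motif, then TTTCACTTC, which is the interferon-stimulated element read on the opposite strand, then ATTGG and CCAAT. In H2-D1 the kB match lay at -170 to -162 and the interferon-stimulated match at -150 to -142 from the start. In H2-K1 they lay at -124 to -116 and -104 to -96. The longest run of identical bases shared by both windows was 47 bases, against 12 bases for H2-D1 and H2-T23 and 8 bases for H2-K1 and H2-T23. The H2-T23 window held 1 CCAAT match, and the Psmb8 window held 1 TTCNNNGAA match at -97 to -89. Among 32851 upstream windows of this length in the annotation, the kB letters were found in 0.3%, the interferon-stimulated letters in 6.31%, the interferon-gamma activated letters in 7.02% and CCAAT in 33.85%. The windows of Psmb9 and Tap1 overlap, since the pair is transcribed in opposite directions from neighbouring starts. A match describes letters of the reference and is not a measured binding site, and motifs do not overlap one another in these windows.

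Of the 19 member probe sets, 18 differed among the 95 strains (limma moderated F test, Benjamini-Hochberg adjusted over 45037 probe sets). This is close to the rule in this panel, where 77% of all probe sets passed. The exception was the dim H2-T23 probe set 1419658_PM_at (adjusted p = 0.286). The heavy chains stood high by the size of the strain share. The share of a probe set's variance that lay among strains had a median of 17.87% over all probe sets. Over the probe sets with a mean intensity above the median, the median share was 29.44%. The main probe set of a gene is the one with the highest mean. The share was 67.19% for the main H2-K1 probe set, 47.34% for the main H2-T23 probe set and 47.23% for the main H2-D1 probe set. These stand at percentiles 99.31, 95.23 and 95.18 of all probe sets. The other H2-K1 probe sets had lower shares of 43.14%, 44.02% and 43.48%. Tapbp had 38.36% (percentile 86.6) on its main probe set and 16.48% on the other. The main probe sets of the immunoproteasome subunits lay below both medians, with 13.53% for Psmb9, 13.04% for Psmb10 and 12.84% for Psmb8. The probe set of uncertain name, 1416016_PM_at, had 33.56%.

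H2-D1 was covered by 5 probe sets, and 4 of them were split over strains into a bright and a dim set with nothing between. For 1452544_PM_x_at, 41 strains had means from 8.05 (A/J) to 8.99 (BXA25/PgnJ, 1 array) and the other 60 had means from 2.54 (I/LnJ) to 3.58 (BXH19/TyJ). The gap of 4.47 compares with a standard deviation within strains of 0.27. All 145 arrays of the bright strains lay at or above 7.66, and all 221 arrays of the dim strains lay at or below 4.09. The probe set 1427651_PM_x_at separated the same 41 strains from the same 60, with a gap of 3.74 between A/J at 7.63 and CBA/J at 3.88. Its bright arrays lay at or above 7.22 and its dim arrays at or below 4.24.

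The 41 strains comprise 22 of 36 BXD, 8 of 21 AXB/BXA, 2 of 9 CXB, none of 4 BXH and 9 of 31 classical inbred strains. The 9 classical strains are A/J, BALB/cByJ, BALB/cJ, C57BLKS/J, DBA/2J, LG/J, NZB/BlNJ, PL/J and SEA/GnJ. The 2 CXB strains are CXB1/ByJ and CXB12/HiAJ, with means of 8.70 and 8.60 (n = 4 each) on 1452544_PM_x_at. The AXB/BXA strains are AXB2/PgnJ, AXB5/PgnJ, AXB8/PgnJ, AXB12/PgnJ, AXB15/PgnJ, BXA4/PgnJ, BXA8/PgnJ and BXA25/PgnJ. DBA/2J and A/J, progenitors of the BXD and AXB/BXA sets, were bright, as were BALB/cJ and BALB/cByJ of the BALB/c line. C3H/HeJ, progenitor of the BXH set, was dim on this pair of probe sets.

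Another H2-D1 probe set, 1450170_PM_x_at, was bright in 7 other strains. AKR/J had a mean of 7.72, followed by C58/J (7.63), BXH6/TyJ (7.57), MA/MyJ (7.54), C3H/HeJ (7.53), CBA/J (7.41) and CE/J (7.20), and the next strain stood at 3.67 (BXA25/PgnJ). The 30 bright arrays lay at or above 7.11 and the other 336 at or below 3.83. The last of the 4, 1451934_PM_at, was bright in SM/J and NZW/LacJ. SM/J had a mean of 6.64 with arrays from 6.18 to 7.19, NZW/LacJ a mean of 5.82 with arrays from 5.56 to 6.03, and the next strain a mean of 2.91. No strain was bright on more than 1 of these 3 patterns. In all, 50 strains were bright on at least 1 of them and 51 on none, among them C57BL/6J and 13 other classical inbred strains. The strain shares of the 4 probe sets were 93.45% to 99.07%, at percentiles 99.97 to 100. No detection calls were used. The dim values lie around the median of all values, so folds on these probe sets are ratios of intensities and not of transcript amounts. The largest gap of any of the other 15 member probe sets was 0.40 (H2-K1 1450534_PM_x_at).

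**Figure D1:**
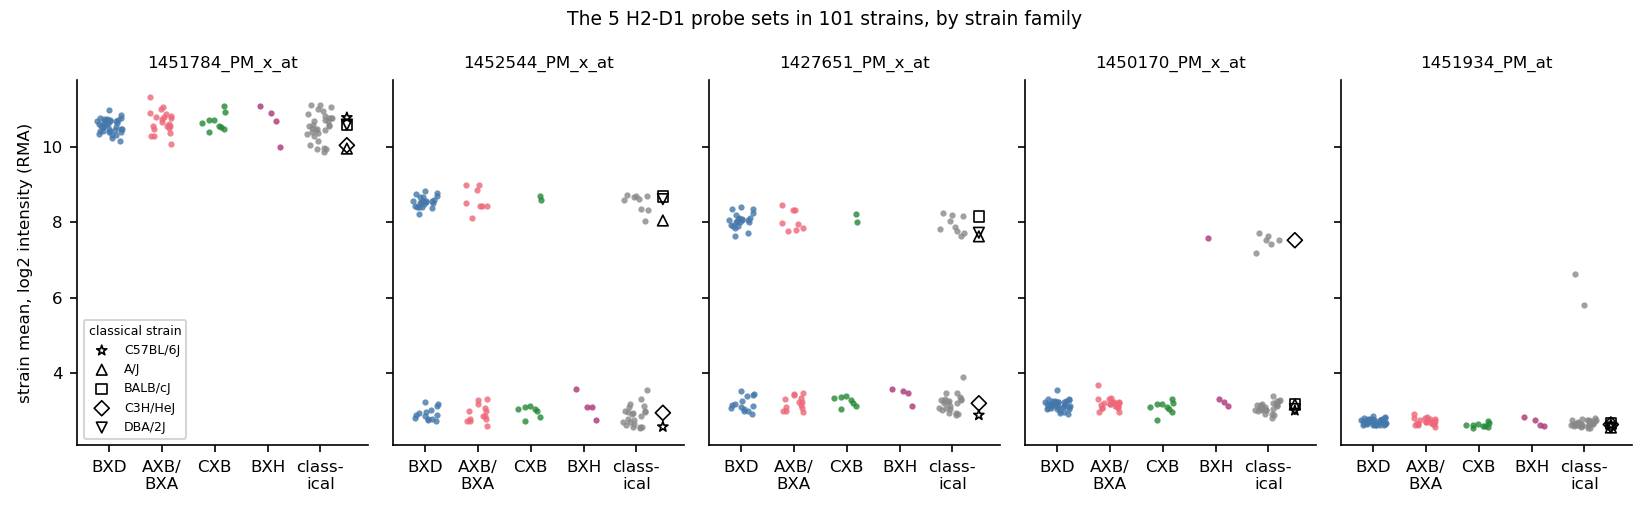
Strain means (log2 intensity, RMA) of the 5 H2-D1 probe sets in all strains, by strain family on the horizontal axis, with the progenitor strains marked. The main probe set 1451784_PM_x_at varies without a gap between 9.88 and 11.34, while the other 4 fall into a bright and a dim set with gaps of 2.90 to 4.47.

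The main H2-D1 probe set, 1451784_PM_x_at, had no such gap. Its strain means ran from 9.88 in CE/J, 9.95 in CBA/J and 9.96 in A/J to 11.11 in SWR/J, 11.12 in FVB/NJ and 11.34 in BXA1/PgnJ (1 array), and the largest step between neighbouring strains was 0.22, below the standard deviation within strains of 0.26. In C57BL/6J the 6 arrays ran from 10.29 to 11.03 with a median of 10.85 and a mean of 10.79 ± 0.28 (SD, n = 6). The 3 A/J arrays read 10.12, 10.47 and 9.29, and the 8 C3H/HeJ arrays ran from 9.64 to 10.48 with a median of 10.02 and a mean of 10.05 ± 0.27 (SD, n = 8). Both groups overlapped C57BL/6J by 1 or more arrays and had lower means. The 4 BALB/cJ arrays (9.96 to 10.96) and the 5 DBA/2J arrays (10.31 to 10.75) lay inside or across the C57BL/6J range.

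Contrasts with C57BL/6J were made for the 4 progenitor strains in 1 limma fit over all strains. They share the C57BL/6J arrays, so they are not independent of one another. BALB/cJ, which the study counts among the progenitors, stands here for the BALB/c line of the CXB set. BALB/cByJ was also on the arrays (n = 3), and its contrast is not given. Over all probe sets 1.29% were higher and 3.61% lower in A/J, 1.58% and 4.65% in BALB/cJ, 3.88% and 4.99% in C3H/HeJ, and 1.4% and 2.25% in DBA/2J. Of the 19 member probe sets, 5 differed in A/J (2 higher, 3 lower), 2 in BALB/cJ (both higher), 3 in C3H/HeJ (1 higher, 2 lower) and 2 in DBA/2J (both higher). All 7 higher calls were H2-D1 switch probe sets. On 1452544_PM_x_at the C57BL/6J arrays ran from 2.38 to 2.94. The 3 A/J arrays read 8.10, 8.38 and 7.66, the 4 BALB/cJ arrays 8.98, 8.38, 8.91 and 8.48, and the 5 DBA/2J arrays 8.81, 8.63, 8.52, 8.81 and 8.31. Intensity was 44.7-fold higher in A/J (adjusted p = 7.19e-80), 69.7-fold higher in BALB/cJ (adjusted p = 1.73e-98) and 66.3-fold higher in DBA/2J (adjusted p = 1.53e-103). C3H/HeJ had 2.66 to 3.3 on this probe set and did not pass (adjusted p = 0.0936). On 1427651_PM_x_at the intensity was 26.9-fold, 38.9-fold and 28.8-fold higher in the same 3 strains. On 1450170_PM_x_at the 8 C3H/HeJ arrays ran from 7.33 to 7.73, against 2.85 to 3.25 in C57BL/6J, a 23-fold higher intensity (adjusted p = 4.34e-116).

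On the main probe set the signs turned. H2-D1 1451784_PM_x_at was lower in A/J (log2 difference -0.82 ± 0.18 SE, 1.77-fold, adjusted p = 0.000963) and lower in C3H/HeJ (-0.74 ± 0.14 SE, 1.67-fold, adjusted p = 3.34e-05). BALB/cJ and DBA/2J differed by -0.20 (95% interval -0.52 to 0.13) and -0.19 (-0.49 to 0.12). The A/J difference rests on the third A/J array: without it the difference was -0.49 (adjusted p = 0.236), and in a fit of both groups alone the adjusted p was 0.122. The C3H/HeJ difference passed in all 21 alternatives.

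H2-K1, the other classical heavy chain, was measured by 4 probe sets and its main probe set spanned the widest range of strain means of the 7 main probe sets. Strain means of the main one, 1425336_PM_x_at, ran from 9.90 in AXB15/PgnJ, 9.97 in A/J and 10.03 in AXB8/PgnJ to 11.82 in BUB/BnJ, 11.93 in FVB/NJ and 12.14 in SWR/J. The 4 SWR/J arrays (11.89 to 12.31) lay above every C57BL/6J array, whose 6 values were 11.30, 10.83, 11.13, 11.06, 11.31 and 11.39. The 3 A/J arrays read 9.81, 10.69 and 9.41, all below the lowest C57BL/6J array. A/J was lower (log2 difference -1.20 ± 0.18 SE, 2.29-fold, adjusted p = 9.81e-08). The 8 C3H/HeJ arrays ran from 10.09 to 10.88 with a median of 10.60, of which 7 lay below the C57BL/6J range, and the difference was -0.61 ± 0.14 (SE, 1.53-fold, adjusted p = 0.000573). Both calls held in every alternative (16 and 21). BALB/cJ (-0.11, 95% interval -0.43 to 0.22) and DBA/2J (-0.10, -0.40 to 0.20) did not pass.

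The 3 other H2-K1 probe sets, 1 of which (1450534_PM_x_at, mean 3.66) lies near the median of all values, did not follow to the same extent. In C3H/HeJ they differed from C57BL/6J by -0.07, 0.12 and -0.18, and in A/J by -0.60, -0.49 and -0.10, with adjusted p between 0.0548 and 0.889. The difference between 2 probe sets of the same gene was tested within arrays, which removes what both share, by a two-sided exact permutation test. Over 22 pairs of probe sets and 4 progenitors, 42 of 88 tests passed after adjustment over the 88, of which 32 concern H2-D1, 8 H2-K1, 1 H2-T23 and 1 Psmb9. With 3, 4, 5 and 8 arrays the smallest p these tests allow is 0.0119, 0.00476, 0.00216 and 0.000333. In C3H/HeJ the contrast of the main H2-K1 probe set minus that of 1427746_PM_x_at was -0.55 (exact permutation, adjusted p = 0.0112), minus that of 1424948_PM_x_at -0.73 (adjusted p = 0.00419) and minus that of 1450534_PM_x_at -0.44 (adjusted p = 0.0301). In A/J the same 3 differences were -0.59, -0.70 and -1.10 (adjusted p = 0.0291 each, exact permutation). In BALB/cJ the first 2 passed (-0.23 and -0.27) and in DBA/2J none of the 6 H2-K1 pairs. Among the 3 other probe sets no pair passed in any progenitor. Over strains, the main probe set correlated with the other 3 at r = 0.83, 0.73 and 0.51 (95 strain means). The probe sets of H2-K1 thus give different sizes for 1 strain contrast, and their probe sequences were not compared with strain sequences here.

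H2-T23 was read from 1449556_PM_at, since its other probe set had a mean of 2.60. Strain means ran from 7.92 in A/J and 7.99 in both AXB5/PgnJ and AXB2/PgnJ to 9.57 in AKR/J, 9.66 in BXA1/PgnJ (1 array) and 9.98 in CXB7/ByJ. The A/J arrays read 7.92, 8.53 and 7.31, against 8.49 to 9.43 in C57BL/6J, so 1 A/J array fell inside the C57BL/6J range. A/J was lower (-0.93 ± 0.24 SE, 1.91-fold, adjusted p = 0.0063), again resting on the third A/J array (-0.63 without it, adjusted p = 0.258) and not passing in a fit of both groups alone (adjusted p = 0.109). In BALB/cJ the 4 arrays of 8.93 to 9.61 gave a difference of 0.51 (95% interval 0.09 to 0.94, adjusted p = 0.148). C3H/HeJ gave 0.35 (-0.01 to 0.70) and DBA/2J 0.11 (-0.29 to 0.51). No contrast of H2-T23 other than that of A/J passed.

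Tapbp, the tapasin gene, varied over a narrow range. On 1421812_PM_at strain means ran from 8.87 in BXD34/TyJ (1 array), 8.89 in BUB/BnJ and 8.96 in BXD36/TyJ to 9.69 in BXD84/RwwJ and BXD66/RwwJ and 9.71 in BXH8/TyJ. The 6 C57BL/6J arrays ran from 9.23 to 9.59. All 4 progenitor differences were negative (-0.30 in A/J, -0.09 in BALB/cJ, -0.22 in C3H/HeJ and -0.28 in DBA/2J) and none passed, with adjusted p between 0.194 and 0.767. Over both Tapbp probe sets, limma called 0 of 8 contrasts, with 4 at an unadjusted p under 0.05. Its share of strain variance within the 4 families tested ran from 22.43% to 35.81%, the smallest range of the 7 members.

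The 3 immunoproteasome subunits showed no difference between a progenitor cross and C57BL/6J that passed. Limma called 0 of 8 tests of Psmb8, 0 of 12 of Psmb9 and 0 of 4 of Psmb10, with 1, 1 and 0 at an unadjusted p under 0.05. Psmb8 (1422962_PM_a_at) ran from 6.80 to 7.93 in C57BL/6J, from 6.60 to 7.96 in A/J, from 7.33 to 8.49 in BALB/cJ, from 7.50 to 8.00 in C3H/HeJ and from 7.19 to 7.73 in DBA/2J. The ranges overlapped in all 4 comparisons. The largest difference, in BALB/cJ, was 0.59 (95% interval 0.07 to 1.10, adjusted p = 0.176). Psmb9 (1450696_PM_at) differed by -0.31 to 0.45 and Psmb10 (1448632_PM_at) by -0.17 to 0.25. On 1416016_PM_at, the probe set of uncertain name, the differences were -0.40 to 0.09. The intervals of these contrasts leave room for changes of the size seen for the main H2-D1 probe set: for A/J the Psmb9 interval reached -0.87.

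**Figure D2:**
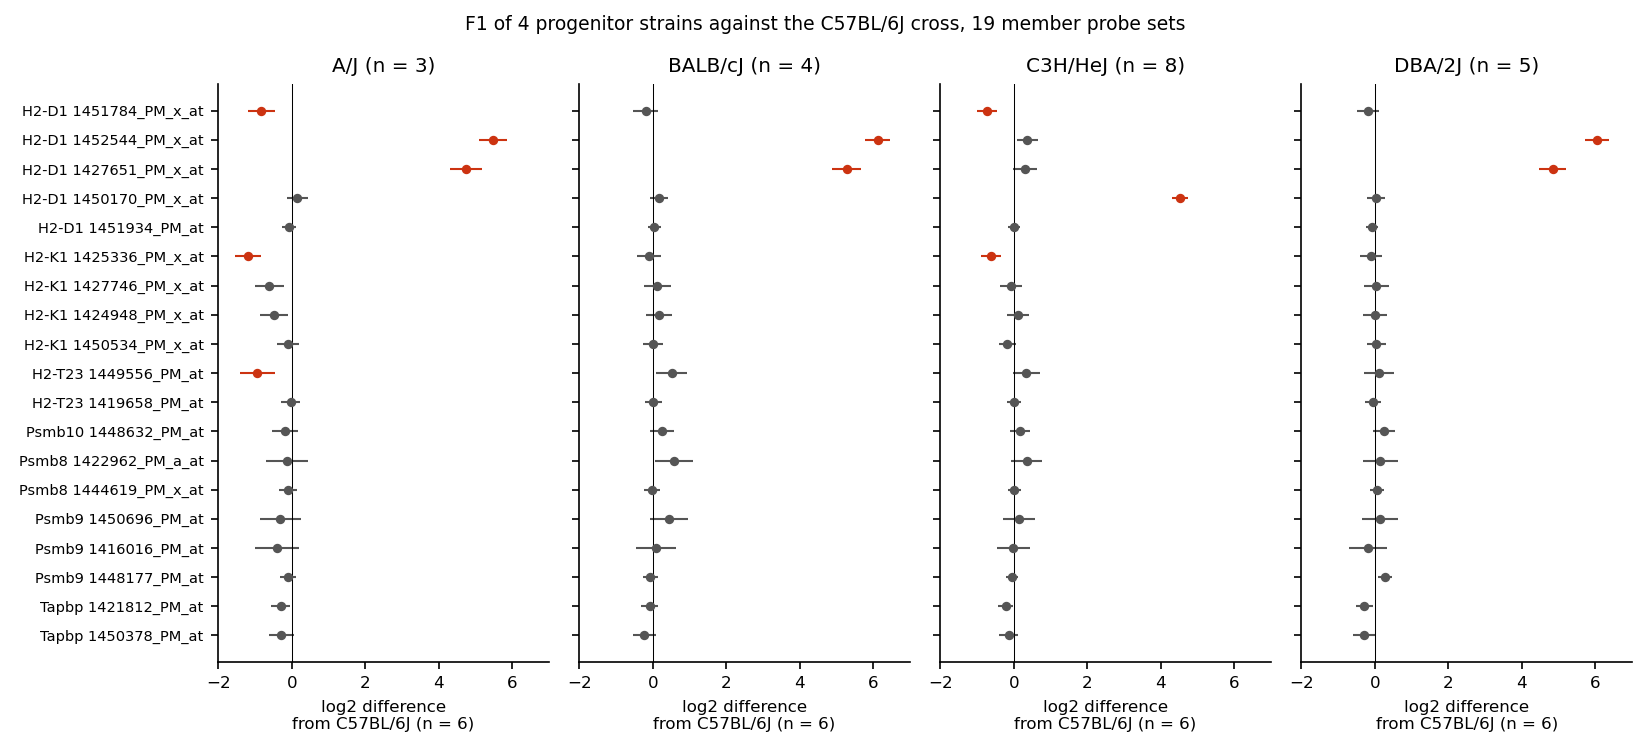
Difference from the C57BL/6J cross (log2 intensity, n = 6 C57BL/6J arrays) of the 19 member probe sets in the A/J (n = 3), BALB/cJ (n = 4), C3H/HeJ (n = 8) and DBA/2J (n = 5) crosses, with 95% intervals from limma. The H2-D1 switch probe sets lie between 4.53 and 6.12 in the strains where they are bright, and the main H2-K1 probe set lies at -1.20 in A/J and -0.61 in C3H/HeJ.

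Over strains, Psmb8 means ran from 7.03 in BXD2/TyJ (1 array) and LP/J and 7.05 in BXD69/RwwJ to 8.34 in BXA25/PgnJ, 8.40 in BXA1/PgnJ (1 array each) and 8.50 in CXB7/ByJ. Psmb9 means ran from 6.62 in NZW/LacJ, 6.72 in 129X1/SvJ and 6.77 in LP/J to 7.93 in CXB7/ByJ, 7.95 in BXD66/RwwJ and 8.16 in BXA25/PgnJ. Psmb10 means ran from 7.43 in BXD44/RwwJ, 7.45 in BXD51/RwwJ and 7.46 in AXB5/PgnJ to 8.20 in BXD66/RwwJ, 8.24 in CXB7/ByJ and 8.26 in BXA25/PgnJ. Some of the high means came from strains whose own mice differed, as in CXB7/ByJ (Psmb8 SD 0.79). The widest spread of Psmb8 within a strain was in BXD66/RwwJ, with arrays at 7.10, 9.79 and 7.41 (SD 1.47). The second BXD66/RwwJ array was high on every member at once. It read 9.53 for Psmb9 (against 7.04 and 7.28 in the other arrays of the strain), 9.26 for Psmb10 (7.66 and 7.67), 10.63 for H2-T23 (8.69 and 9.16), 12.07 for H2-K1 (10.74 and 11.16) and 10.39 for Tapbp (9.34 and 9.35). This array was 1 of the 21 with high T, NK and B cell markers. Its T and NK cell list had a mean of 4.32 against 3.38 and 3.22, while its B cell list had 3.97 against 5.37 and 4.63. The mean of 10 interferon-induced GTPases was 9.19, against 6.66 and 7.33.

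The next widest strains were BXA11/PgnJ (SD 0.91) and AXB12/PgnJ (SD 0.86), and none of their arrays stood apart on lymphocyte or hepatocyte markers. In BXA11/PgnJ the arrays read 9.24, 8.52, 7.31 and 7.49 for Psmb8, and the GTPase means were 8.77, 8.27, 7.02 and 7.13 in the same order. In AXB12/PgnJ the arrays read 7.57, 7.50, 9.22 and 7.46 for Psmb8 with GTPase means of 6.49, 7.03, 8.96 and 6.96. T and NK cell lists in these 8 arrays had means of 2.999 to 3.46. The T and NK cell mean of the bright AXB12/PgnJ array was 3.15. The A/J array that decided the calls above, the third, was the lowest of its 3 on all 7 members. Its GTPase mean was 5.95 (6.68 and 7.33 in the others) and its type I interferon-stimulated mean 4.60 (5.68 and 6.22). No label tells these mice apart.

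**Figure D3:**
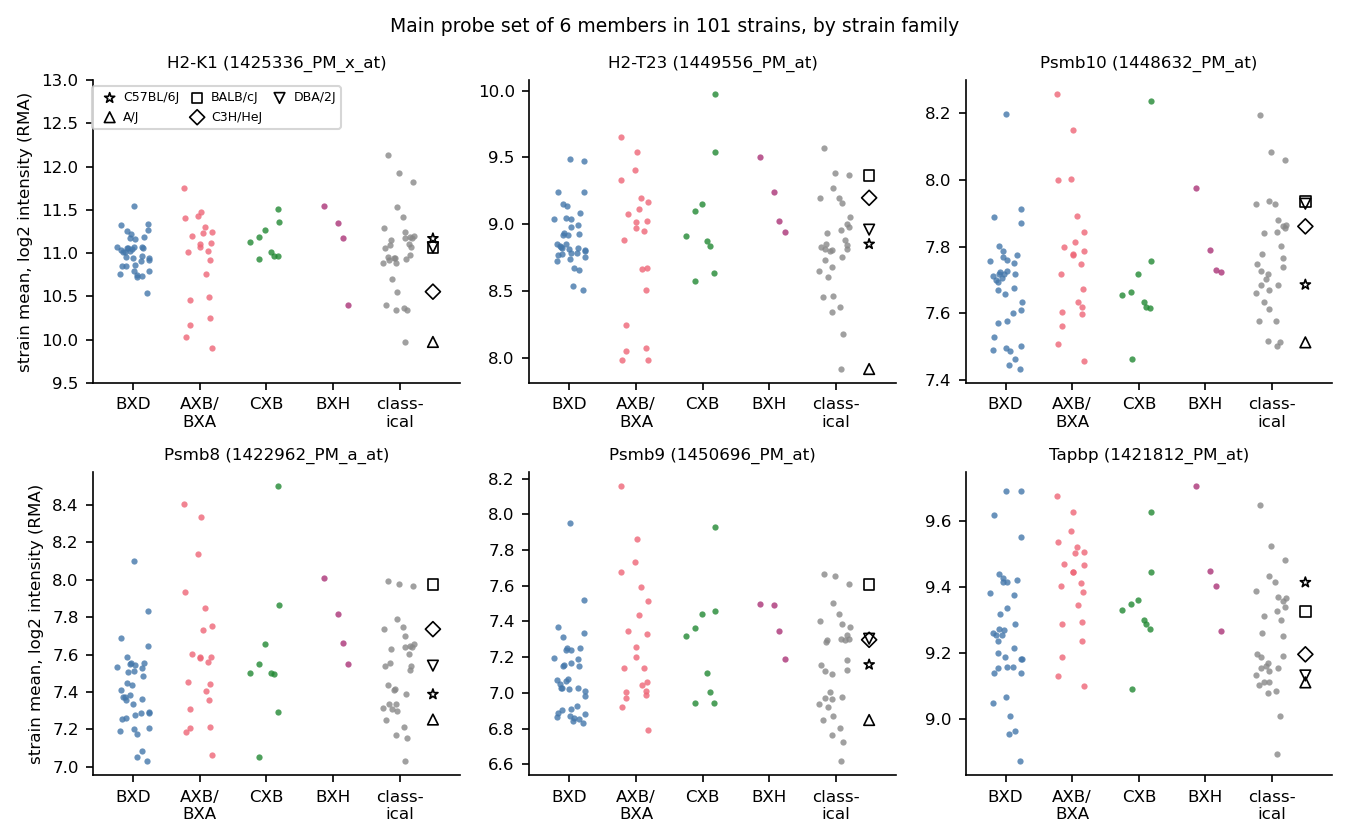
Strain means (log2 intensity, RMA) of the main probe set of 6 members other than H2-D1 in all strains, by strain family, with the progenitor strains marked. H2-K1 spans 9.90 to 12.14 and H2-T23 spans 7.92 to 9.98, while Psmb10 spans 7.43 to 8.26 and Tapbp spans 8.87 to 9.71.

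The share of strain variance of the main probe sets changed with the family. Among AXB/BXA strains it was 80.05% for H2-K1, 65.66% for H2-T23 and 50.31% for H2-D1. Among BXD strains it was 28.38%, 13.79% and 23.47% for the same genes, and 0.80% and 1.07% for Psmb8 and Psmb9. Among classical inbred strains H2-K1 had 73.91%, H2-D1 53.63% and Psmb9 25.0%. Among CXB strains H2-T23 led with 62.33%, followed by Psmb8 with 33.32%. Differences in share between families were not tested. In the F tests within families, 6 of 19 member probe sets differed among BXD strains, against 42.4% of all probe sets, 11 among AXB/BXA strains (40% of all), 5 among CXB strains (12.9% of all) and 13 among classical inbred strains (61.5% of all). The main H2-K1 probe set passed among BXD (adjusted p = 0.00204), AXB/BXA (3.19e-13) and classical strains (4.09e-19) and missed among CXB strains (0.231). The other H2-K1 probe sets passed among AXB/BXA and classical strains. They missed among BXD strains (adjusted p by F test 0.159 to 0.479) and CXB strains (0.0967 to 0.456). The main H2-T23 probe set passed among AXB/BXA (3.63e-08), CXB (0.00205) and classical strains (1.02e-07) and missed among BXD strains (0.0766). The main Psmb8 probe set passed in none of the 4, although it differed among all strains (adjusted p = 0.0042).

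**Figure D4:**
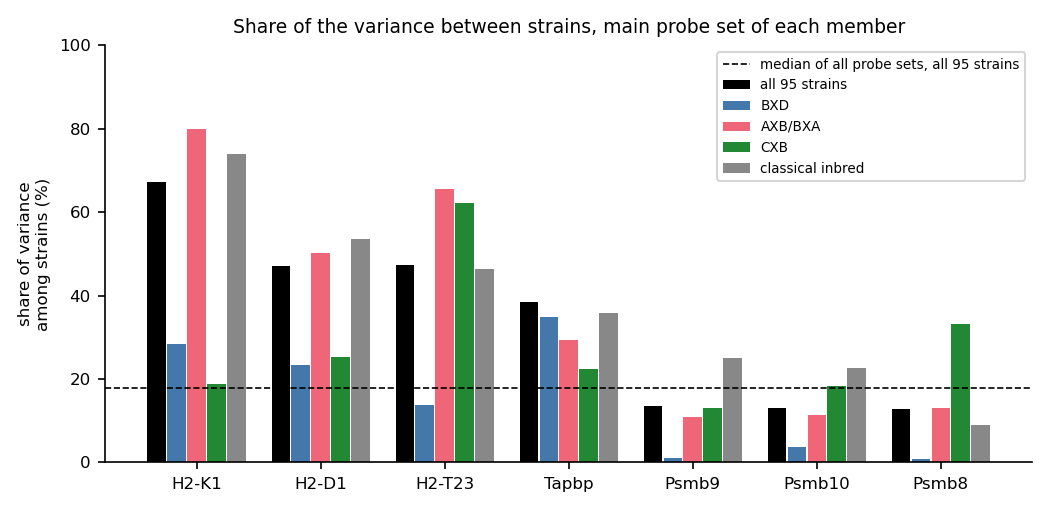
Share of variance among strains (percent, vertical axis) of the main probe set of the 7 members, over all 95 strains and within the BXD, AXB/BXA, CXB and classical inbred strains, with the median of all probe sets (17.87%) as a dashed line. H2-K1 stands at 67.19% over all strains and 80.05% among AXB/BXA strains, whereas Psmb8 stands at 12.84% and 12.96%.

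Within the AXB/BXA set the low end of the heavy chains was held by a few strains. The lowest means of H2-K1 were those of AXB15/PgnJ (9.90, arrays from 9.63 to 10.04), AXB8/PgnJ (10.03) and AXB2/PgnJ (10.17), near A/J at 9.97, and the highest that of BXA1/PgnJ at 11.76. AXB15/PgnJ, AXB2/PgnJ and AXB8/PgnJ also had the lowest H2-D1 means of the set on the main probe set, and AXB5/PgnJ, AXB2/PgnJ and AXB15/PgnJ the lowest H2-T23 means. In the BXH set, BXH6/TyJ was the lowest of 4 strains on the main probe sets of H2-D1 (10.003), H2-K1 (10.40), H2-T23 (8.94), Tapbp (9.27), Psmb8 (7.55), Psmb9 (7.19) and Psmb10 (7.72). It is also the 1 BXH strain bright on 1450170_PM_x_at, as is the progenitor C3H/HeJ. In the CXB set CXB7/ByJ was the highest of 9 on each of these 7 probe sets, with 11.10 for H2-D1, 11.51 for H2-K1 and 9.98 for H2-T23.

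Between the 5 families themselves, compared over strain means, 2 of 19 member probe sets differed, against 7.49% of all probe sets. They were 1416016_PM_at, the probe set named Psmb9 or Tap1 (adjusted p = 0.0292), and Tapbp 1450378_PM_at (adjusted p = 0.0484). Means over all strains of a family, those with 1 array included, on 1416016_PM_at were 5.67 in the classical strains, 5.84 in BXD, 6.04 in AXB/BXA, 6.06 in CXB and 6.17 in BXH strains, with standard deviations over strains of 0.23 to 0.47. On Tapbp 1450378_PM_at they were 5.27, 5.23, 5.39, 5.32 and 5.46 in the same order. Neither call was kept when only strains with at least 3 arrays were used (0 of 19 by limma, 5 at an unadjusted p under 0.05).

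Across the 95 strain means the closest pairs lay within the classical heavy chains and within the immunoproteasome subunits. On their main probe sets, H2-D1 and H2-K1 correlated at r = 0.84, and Psmb8 correlated with Psmb9 at r = 0.91 and with Psmb10 at r = 0.81. The main H2-D1 probe set correlated with the other H2-D1 probe sets at r = -0.30, -0.29, -0.53 and 0.14. The probe sequences of H2-D1 and H2-K1 were not compared. Between these heavy chains and subunits correlations were lower, from 0.34 (H2-K1 and Psmb9) to 0.48 (H2-D1 and Psmb8). H2-T23 correlated with Psmb8 at 0.65, with Psmb9 at 0.60, with Tapbp at 0.59, with Psmb10 at 0.52, with H2-K1 at 0.50 and with H2-D1 at 0.38. Tapbp had r between 0.40 (H2-K1) and 0.51 (Psmb8) with the other 5. Within strains, after each strain's mean was removed, H2-K1 and Psmb9 correlated at 0.81 and H2-K1 and Psmb8 at 0.80 over 360 arrays. These correlations are descriptions. Their points share arrays, and strains of a set share ancestors.

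To set the members beside interferon genes and cell markers, strain means were correlated with the mean z score of 6 gene lists, 42 pairs in all. After Benjamini-Hochberg adjustment over the 42, 29 passed by Pearson's r, all positive (permutation test, 100000 resamples, smallest p 1e-05). Each member and score came from the same arrays, so covariation between mice of a strain enters the strain means. Its part was not tested. The permutation treats strains as exchangeable, although strains of a set are related. Psmb8 and Psmb9, with strain shares of 12.84% and 13.53%, had the highest r with the interferon-induced GTPases. Psmb8 had r = 0.74 and rho = 0.71 (permutation p = 1e-05 for both, adjusted p = 3.2e-05 for r), and r = 0.69 without the 2 strains farthest from the median score. Psmb9 had r = 0.73 and rho = 0.71 (permutation p = 1e-05), and r = 0.69 without those strains. H2-T23 followed the type I interferon-stimulated list (r = 0.68, rho = 0.62, permutation p = 1e-05, 0.62 without the 2 strains) and the GTPases (r = 0.66, rho = 0.63). Tapbp had r = 0.56 and rho = 0.52 with the GTPases and Psmb10 had r = 0.47 and rho = 0.44 (permutation p = 1e-05 for r in both).

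H2-K1 and H2-D1 tracked these scores less closely over all strains. H2-K1 had r = 0.31 and rho = 0.32 with the GTPases (permutation p = 0.0026, adjusted p = 0.0045) and H2-D1 had r = 0.35 and rho = 0.33 (permutation p = 0.00057, adjusted p = 0.0012). Among the 33 BXD strains the values were 0.53 and 0.43, and among the 31 classical strains -0.06 and -0.06. With the type I interferon-stimulated list H2-K1 and H2-D1 had r = 0.30 and 0.29 over all strains (adjusted p = 0.0047 and 0.0062, permutation). Among BXD strains these were 0.60 and 0.53, and among classical strains -0.17 and -0.225. The difference between these families was not tested. Within strains, over 360 arrays, H2-K1 and H2-D1 correlated with the GTPases at 0.65 and 0.61, as a description. Psmb8 and Psmb9 did so at 0.81 and 0.82. With the macrophage list all 7 members passed, at r = 0.24 (Tapbp) to 0.39 (Psmb10). The Tapbp value had rho = 0.215 (adjusted p = 0.054, permutation) and r = 0.175 without the 2 farthest strains, and it passed in 1 of 5 alternatives (adjusted p up to 0.11). Among the 33 BXD strains alone H2-K1, H2-T23, Psmb8 and Psmb9 did not pass with this list, at r = 0.32, 0.39, 0.33 and 0.30. Over all 95 strains they had 0.33, 0.35, 0.36 and 0.38, so r was close and the number of strains smaller. With the T and NK cell list 5 passed, led by Psmb9 at r = 0.62, although that list's genes lie near the median of all values, and without the lymphocyte-high arrays H2-T23, Tapbp and Psmb10 no longer passed with it (r = 0.17, 0.0042 and 0.18). With the B cell list 3 passed (H2-T23, Psmb8 and Psmb9, r = 0.29 to 0.32), and none of the 3 without the lymphocyte-high arrays. With the smooth muscle list none passed (r = 0.015 to 0.19, none at an unadjusted permutation p under 0.05).

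**Figure D5:**
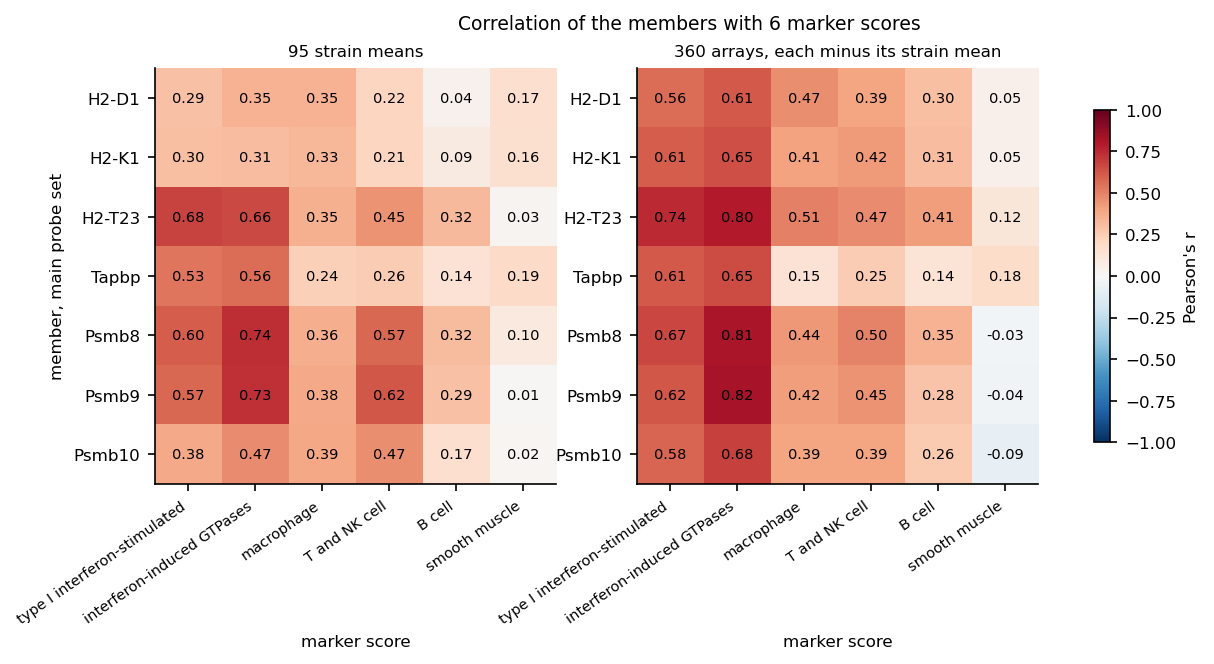
Pearson's r of the 7 members (main probe set, vertical axis) with 6 marker scores (horizontal axis) over strain means, coloured from blue to red. The interferon-induced GTPases reach 0.74 with Psmb8 and 0.73 with Psmb9 and 0.31 with H2-K1, and the smooth muscle column lies between 0.015 and 0.19.

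The genes outside the list whose strain means were most like each member, out of 17090 searched, were these. For H2-D1 and H2-K1 they were C4b (complement C4, r = 0.65 and 0.66) and H2-Ab1 (an MHC class II beta chain, 0.58 and 0.61), both on chromosome 17, with H2-Q5 (0.58) as the third for H2-D1 and Inpp5d (0.58) for H2-K1. For H2-T23 they were H2-T10, another nonclassical heavy chain (0.76), the GTPase Ifi47 (0.74) and Oas2 (0.68). For Psmb8 they were Ifi47 (0.80), Igtp (0.77) and Iigp1 (0.73), all interferon-induced GTPases. For Psmb9 they were Igtp (0.78), Ifi47 (0.78) and the nucleic acid sensor Zbp1 (0.74). For Psmb10 they were the transcription factor Irf1 (0.65), Ubd (0.64) and Ifi35 (0.63). For Tapbp they were Gbp3 (0.59), Nlrc5, a transactivator of MHC class I genes (0.58), and H2-T10 (0.57). Among BXD strains alone the first gene of each member had r between 0.45 (Tapbp) and 0.79 (Psmb9). These values rank genes by likeness over 95 strain means and carry no test.

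Other genes of the pathway were read in the same contrasts, 1 probe set per gene. Over all probe sets 77% differed among strains, and the counts of the lists below stand beside that share. Of 18 further class I heavy chain genes 11 were measured and 10 differed among strains, with a median share of 29.09%. H2-Q10, a secreted class I chain made mainly by liver, had a share of 84.09% and was lower in A/J (-1.09), BALB/cJ (-1.09) and DBA/2J (-1.40). Hfe, the class I-like regulator of iron uptake, had 66.35% and was lower in A/J (-0.85), BALB/cJ (-1.04) and C3H/HeJ (-0.65). H2-T24 was higher in BALB/cJ (0.79) and C3H/HeJ (1.09). Of the loading chaperones and trimming genes all 6 measured differed among strains. In the contrasts 1 of the 6 was called lower in each progenitor, against 2.25% to 4.99% of all probe sets. This was Pdia3, the thiol oxidoreductase ERp57 of the loading complex, at -0.43 in A/J, -0.32 in BALB/cJ, -0.32 in C3H/HeJ and -0.30 in DBA/2J. Its probe set had a mean of 3.48, near the median of all values (3.28), and the 4 contrasts share the C57BL/6J arrays. Uggt1, which checks glycoprotein folding, was higher in DBA/2J (0.35). Medians of the list's 4 contrasts were -0.25, -0.11, -0.03 and -0.12, against -0.024 to -0.004 over all probe sets.

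The proteasome activator and assembly genes (Psme1, Psme2, Psme3 and Pomp) all differed among strains, and limma called none of them in any progenitor (smallest adjusted p = 0.0883, Psme3 in C3H/HeJ). The 6 measured class I regulators (Nlrc5, Rfx5, Rfxap, Rfxank, Irf1 and Irf2) also all differed among strains and were called in no progenitor (smallest adjusted p = 0.0593, Rfxank in C3H/HeJ), with list medians of -0.10 to 0.09. All 14 constitutive 20S proteasome subunits differed among strains, against 77% of all probe sets. Their median share was 38.27%, above the shares of the immunoproteasome subunits. The median share was 29.44% over all probe sets with a mean intensity above the median. In DBA/2J, 4 of the 14 were lower, against 2.25% of all probe sets. Psmb6, the constitutive subunit that Psmb9 replaces, led them (-0.54, adjusted p = 2.32e-12 by limma). The other 3 were Psma1 (-0.32), Psma6 (-0.26) and Psmb5 (-0.27). BALB/cJ (4.65% of all probe sets lower) had 2 lower, Psmb5 (-0.36) and Psmb7 (-0.48), and C3H/HeJ (4.99%) had Psma1 (-0.23) and Psma2 (-0.21). None was called in A/J (smallest adjusted p = 0.142). Of 7 MHC class II genes 6 differed among strains, and only H2-Aa passed in a progenitor contrast (-0.72 in A/J).

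Marker levels moved with several of these contrasts. The macrophage list was lower in A/J than in C57BL/6J, with 6 of 11 genes called (Adgre1, C1qa, C1qb, C1qc, Csf1r and Mrc1), means per array of 5.59 to 5.69 against 6.11 to 7.41, and C1qa, C1qb and C1qc lower by 0.97 to 1.17 (differences of -0.97, -1.17 and -1.11). In BALB/cJ 2 of 11 were lower and in C3H/HeJ 1. Over all probe sets 3.61% were lower in A/J, 4.65% in BALB/cJ and 4.99% in C3H/HeJ. The smooth muscle list had means per array of 5.77 to 8.48 in C57BL/6J, 8.58 to 9.02 in A/J, 8.63 to 9.28 in BALB/cJ, 8.21 to 9.38 in C3H/HeJ and 7.55 to 8.72 in DBA/2J. Of its 5 genes, 4 were higher in BALB/cJ and C3H/HeJ (Acta2, Cnn1, Lmod1 and Myh11), against 1.58% and 3.88% of all probe sets. None of the 5 was called in A/J or DBA/2J (smallest adjusted p by limma 0.114 and 0.116). Of the 6 endothelial genes, 2 were higher in C3H/HeJ, Emcn by 0.73 (adjusted p = 0.00161) and Cdh5 by 0.61 (adjusted p = 0.0222). Of the type I interferon-stimulated list 2 of 9 genes were lower in A/J (Usp18 -1.57 and Oasl2 -1.05) and 1 in DBA/2J (Usp18 -2.07), and of the 10 GTPases none was called by limma in any contrast (smallest adjusted p = 0.133). The part of these markers in the differences of H2-D1, H2-K1 and H2-T23 was not tested.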

How the data were processed

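Aortic RNA of 366 mice was measured, 1 Affymetrix array per mouse (named HT_MG-430A in the labels and HT MG-430 PM in the study's methods). The table deposited by the authors holds log2 intensities of 45141 probe sets. The labels name GCOS and RMA, whose versions are not given in the sources used here, as is any genome build. After 104 control probe sets were left out, 45037 were tested. Strains were taken from the labels. Probe sets were named by the platform annotation, in which 28898 have 1 symbol, 551 several and 15588 none.

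Differences were tested with limma 3.58.1 (R 4.3.3) in a fit over the 360 arrays of 95 strains with at least 2 arrays, with Benjamini-Hochberg adjustment over all probe sets and a threshold of 0.05. The share of variance among strains is the one-way intraclass correlation. Families were compared on strain means. Pairs of probe sets were compared by exact permutation and scores by 100000 permutations (Python 3.11.15, pandas 2.3.3, numpy 2.4.6, scipy 1.17.1). The scripts were tested on simulated data. By the rule, all members, the 3 most alike genes of each, the highest and lowest 3 strains and the pathway and interferon list genes that passed a progenitor contrast are named. The strains are given for the main probe sets, and for the others in part. Marker genes outside these lists were named after their values were seen. Of 60 planned score pairs 42 were run, since 3 members had no probe set. Members and lists were chosen with earlier results of these data known. Strains with a wide spread were chosen after their values were seen. Arrays carry no batch or date, and no detection calls were used, so the number of arrays limits the precision. The labels name no cage, litter or batch. The p-values of the tests over arrays measure the spread between mice of a strain. Those of the family comparison and of the score correlations measure the spread between strain means. Alternatives left out arrays with high hepatocyte or lymphocyte markers, strains with under 3 arrays, dim probe sets and single arrays, used marker scores as covariates, array weights or strain medians, or fitted 2 groups alone.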

Additional observations from a re-analysis of the deposited data

Results flagged for a closer look

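A/J, with 3 arrays, was too small to be searched for outlying arrays. In the other strains of the progenitor contrasts, an array far from the rest was sought by Dixon's test at the 95% level. The search covered groups of 4 to 10 arrays, in 76 combinations of probe set and strain. Chance flags about 1 in 20 such groups, and 6 arrays were found. On H2-D1 1427651_PM_x_at the highest of 6 C57BL/6J arrays read 3.22, and the next 2.87. On Psmb8 1444619_PM_x_at the highest of 6 C57BL/6J arrays read 2.78, and the next 2.48. On H2-D1 1451934_PM_at the highest of 8 C3H/HeJ arrays read 2.98, and the next 2.63. These 3 values lie below the median of all values. On H2-K1 1427746_PM_x_at the highest of 8 C3H/HeJ arrays read 9.701, and the next 9.25. In DBA/2J the lowest of 5 arrays read 8.52 on H2-T23 1449556_PM_at (next 8.97) and 8.88 on Tapbp 1421812_PM_at (next 9.16).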

How the results depend on the processing

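The counts of member probe sets called by limma moved as follows. In A/J, 5 were called, with 8 under array weights, 3 in a fit of the 2 groups alone and 3 to 7 when 1 array was left out (3 without A/J replicate 3). Among BXD strains 6 were called, with 13 under array weights and 4 to 7 without 1 replicate number. Among CXB strains 5 were called, with 3 when lymphocyte-high arrays were left out, 3 with marker scores as covariates and 2 to 6 without 1 replicate number (2 without 1, 3 without 2 and 2 without 3). Among AXB/BXA strains 11 were called, with 6 to 11 without 1 replicate number (6 without replicate 1). Between families 2 were called, with 0 for strains with at least 3 arrays (5 at an unadjusted p under 0.05), 1 without hepatocyte-high arrays, and 0 to 2 without 1 replicate number (0 without replicate 2, 5 at an unadjusted p under 0.05). Without single arrays or replicate numbers, the count ranged from 13 to 19 for all strains, 12 to 15 for classical strains, 2 to 2 for BALB/cJ, 3 to 3 for C3H/HeJ, 2 to 3 for DBA/2J and 28 to 45 for the 42 pairs of probe sets, the low end whenever an A/J array was left out. Leaving out an A/J array raises the smallest p that the exact test allows. That low end therefore says little about the A/J differences. Of the recomputed progenitor differences of the main probe sets, 498 kept their side of the threshold. The A/J calls of H2-D1 and H2-T23 were lost without A/J replicate 3 and in the 2-group fit, and under array weights Tapbp in A/J (-0.35, adjusted p = 0.0217) and H2-T23 in BALB/cJ (0.59, adjusted p = 0.0429) passed. Of the recomputed score correlations 186 kept their side, 20 no longer passed and 4 newly passed. The cause of these moves was not tested beyond the smaller number of arrays. No paired analysis was possible because the labels give no replicate numbers, so numbers follow accession order and pair no mice. Alternatives for B2m, Tap1 and Tap2 were not run.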
